A study of Mus musculus with 3 samples.

Results

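The clustered histone genes encode the core histones H2A, H2B, H3 and H4 and the linker histone H1, and they are named Hist1, Hist2, Hist3 or Hist4 after their cluster. Every row of the deposited table whose symbol starts with 1 of these 4 names was taken, which gave 75 of 24458 rows and 68 of 23934 symbols. RNA was sequenced from the microdissected dentate gyrus, a part of the hippocampus rich in granule neurons, of adult C57BL/6 mice 8 weeks old. The study asked how neuronal activation changes open chromatin and RNA there. The 3 libraries used carry the group label E24, 1 mouse each. The sample labels do not spell out E24 and state no treatment, time or genotype. The deposited table's name carries the abbreviations WT and ECT, which no label expands. With 1 group no comparison between conditions was made.

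Core histones pack DNA into nucleosomes, and H1 binds the DNA between them. Most clustered histone genes are transcribed when a cell copies its DNA, and their mRNAs end in a conserved stem-loop in place of a poly(A) tail. The stem-loop is bound by SLBP, which processes and stabilises these mRNAs. Neurons no longer divide and draw largely on replication-independent histone genes such as H3f3a and H3f3b. Some clustered genes are also known to give polyadenylated mRNA, by reading past the stem-loop, in cells that have left the cycle.

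The stem-loop is shown because it bears on how a member's mRNA can end, and so on whether a library selected on poly(A) would hold it. The labels name total RNA and standard Illumina protocols, and say nothing of poly(A) selection. Transcripts of GENCODE M21, matched by symbol for 68 of 68 member symbols, were searched on their own strand only for the histone stem-loop, 16 letters with a stem of 6 and a loop of 4, in which 5 letters were free. The motif was found in 44 member symbols (64.7%), against 72 of all 21877 protein-coding symbols (0.329%), a set from which members were not left out. It was found for 4 of 6 H1, 11 of 18 H2A, 10 of 19 H2B, 8 of 12 H3 and 11 of 13 H4 symbols. A missing match says only that these letters are not in the annotated transcript, and does not show how the mRNA ends. Some members without a match have short annotated transcripts, such as Hist1h2bl with 381 bases and Hist1h4k with 312. Others have long ones, such as Hist2h2be with 2620. Capitals mark the stem-loop in each sequence, with 5 bases on either side.
Hist3h2ba: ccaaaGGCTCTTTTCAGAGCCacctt
Hist3h2a: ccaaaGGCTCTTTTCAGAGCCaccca
Hist1h1c: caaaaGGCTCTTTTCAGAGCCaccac
Hist1h3c: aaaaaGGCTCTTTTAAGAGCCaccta
Hist2h2ac: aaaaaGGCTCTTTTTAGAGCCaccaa
Hist1h4d: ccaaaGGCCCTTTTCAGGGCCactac
Hist1h4i: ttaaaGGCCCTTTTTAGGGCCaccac
Hist1h4j: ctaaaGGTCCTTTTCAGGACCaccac
Hist4h4: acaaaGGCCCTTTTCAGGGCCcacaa
The form printed for Hist3h2ba, Hist3h2a and Hist1h1c was the most frequent, in 26 symbols of classes H1, H2A, H2B and H3. The form printed for Hist1h3c stood in 6 symbols and that of Hist2h2ac in 1. The 11 H4 symbols had stems of their own, in 7 symbols as in Hist1h4d and Hist4h4, in 2 as in Hist1h4i and in 2 as in Hist1h4j. Of the 2 highest members outside the Hist3 cluster, Hist1h2bc had no match in its annotated transcript and Hist1h1c had 840 annotated bases after its stem-loop.

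The members lay in 5 places in mm9. Hist1 fills 2 runs on chromosome 13, a proximal run of 26 rows from 21807581 to 22135527 and a distal run of 31 rows from 23622912 to 24026782. Hist2 held 14 rows on chromosome 3 from 96023838 to 96074115, Hist3 3 rows on chromosome 11 from 58762412 to 58768694, and Hist4 a single row on chromosome 6 from 136752513 to 136752952. A run was a stretch of member rows, in table order, broken by no more than 5 other rows. Table order does not always follow coordinates. Rows listed before, inside or after a run need not be its neighbours on the chromosome. The median locus spanned 488 bases, so few reads make a high RPKM. In all, 7 symbols stood on 2 rows each, and 14 rows overlapped the locus of another member.

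The members also resemble one another in sequence. A median of 46.4% of the 50-base stretches in a member's longest transcript were found in another member's transcript as well. The share was 1.10% at the median of H1 genes, 73.0% of H2A, 40.1% of H2B, 57.2% of H3 and 39.5% of H4 genes. It was 100% for Hist2h2aa2, 97.3% for Hist1h2bq and 93.9% for Hist1h3h, against 0% for Hist1h1a, Hist1h1b, Hist1h1t, Hist2h2be, Hist2h2bb and Hist4h4. The sources used here give neither read length nor the treatment of reads that map to several places. Values of members with high shares are therefore uncertain.

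A limit applies to single rows. Near some histone rows, a high value in 1 library was close to a value at another row in the next, as given below, so a value is reported for a row bearing a gene's name and may not be the gene's own. Whether the rows of the whole table are displaced between libraries was not tested. Over all rows the 3 libraries added up to 384523, 369261 and 350942 RPKM. Their depth is unknown. Rows of granule neuron markers also differed widely between libraries. Of 6 markers 0 passed 1 RPKM by the level test described below and 1 had an unadjusted p under 0.05, with Calb1 at 7.18, 91.3 and 89.8 RPKM, Dsp at 0.325, 40.1 and 38.9 RPKM and Prox1 at 1.58, 39.3 and 0 RPKM.

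Rows named for clustered histone genes were low. At 1 RPKM or more stood 11, 8 and 10 of the 75 rows in replicates 1, 2 and 3, or 12.9% ± 2.04 (SD, n = 3), against 49.7% ± 0.437 of all rows. Another 53.8% ± 3.36 were listed at exactly 0, against 30.2% ± 1.27 of all rows. The mean log2(RPKM + 1) was 0.56 ± 0.09 for the members and 1.88 ± 0.01 for all rows. Under 1 RPKM in every library were 55 member rows (73.3%), against 33.0% of all rows. Of these 55, 21 were listed at 0 in every library, which is 28% of member rows, against 18.8% of all rows. The highest value among the 55 was 0.898 RPKM, at Hist2h4 in replicate 2.

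**Figure D1:**
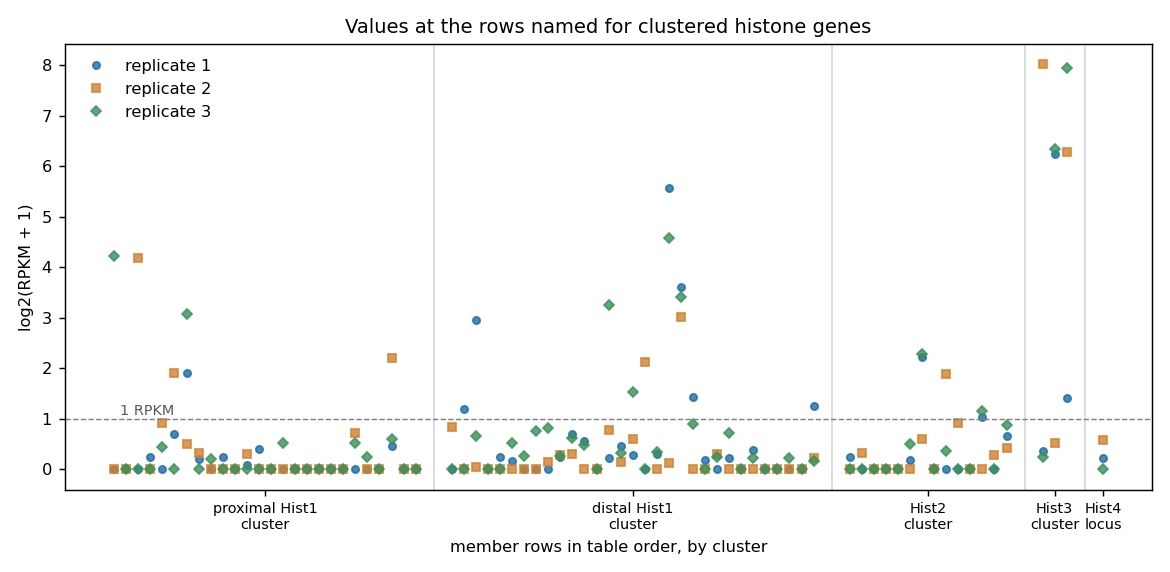
The horizontal axis runs through the 75 member rows in table order, grouped by cluster, and the vertical axis is log2(RPKM + 1), with 1 point per replicate and the dashed line at 1 RPKM. Most points lie below the line, many of them on top of each other at 0, and the highest are the 246 to 259 RPKM of the Hist3 rows.

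A one-sided level test by limma asked of each of the 23934 symbols whether its log2(RPKM + 1) lay above that of 1 RPKM, with Benjamini-Hochberg adjustment. Where a symbol had more than 1 row, the values were added. Of the 68 member symbols 1 passed and 2 had an unadjusted p under 0.05, beside 18.9% of all symbols that passed. The median of a member's mean was 0.185 RPKM, against 3.73 RPKM over all symbols. On the test's scale, log2(RPKM + 1) minus its value at 1 RPKM, the median was -0.77 for members and 0.64 for all symbols.

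The symbol that passed was Hist1h1c, a linker histone gene of the distal Hist1 cluster at 23830675 to 23831400 on chromosome 13. Its row held 11.3, 7.14 and 9.65 RPKM in replicates 1, 2 and 3. It was 1 of 2 member rows (2.67%) at 1 RPKM or more in every library, against 32.4% of all rows. Its values lay within a narrower range than those of the other high members. Its log2 value exceeded that of 1 RPKM by 2.35 with an SE of 0.20 (limma, adjusted p = 0.00775). The adjusted p by limma ranged from 0.00353 to 0.140 over the alternatives, at 0.140 against a level of 5 RPKM and 0.0751 without replicate 3.

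Among the other 5 linker genes the testis gene Hist1h1t held 0, 3.36 and 0 RPKM. Hist1h1e, a somatic H1 gene, held 0.216, 0.517 and 1.88 RPKM. The Hist1h1a row was listed at 0 in all 3 libraries, and Hist1h1b and Hist1h1d stayed at or below 0.704 RPKM. As a class the 6 H1 rows had a mean log2(RPKM + 1) of 0.87 ± 0.19 (SD, n = 3).

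H2B rows had nearly the same mean as H1 rows, 0.88 ± 0.23 over 19 rows. Of these 19 rows, 6 reached 1 RPKM in some library, as did 67.0% of all rows. Hist1h2bc, whose locus at 23776067 to 23784349 on chromosome 13 is far longer than most, held 46.4, 0.0965 and 22.9 RPKM. It was high in replicates 1 and 3 and near 0 in replicate 2, and it did not pass (limma, adjusted p = 0.275). Hist2h2be, which encodes an H2B form best known from mouse olfactory sensory neurons, held 3.69, 0.527 and 3.91 RPKM. Its values in replicates 1 and 3 were close to each other, and replicate 2 was lower.

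Without replicate 2, Hist1h2bc and Hist3h2bb-ps passed beside Hist1h1c, which makes 3 member symbols (limma, adjusted p under 0.05), where 12.8% of all symbols passed. Without replicate 3, 0 member symbols passed and 1 had an unadjusted p under 0.05. Hist1h2bl held 0, 0 and 17.6 RPKM and Hist1h2be 1.39, 0.166 and 0.123 RPKM. Hist2h2bb stayed below 1 RPKM in every library, at 0.575, 0.342 and 0.849 RPKM. Hist1h2ba, a testis H2B gene, was listed at 0 throughout, as were Hist1h2bh, Hist1h2bj, Hist1h2bk and Hist1h2bq.

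The 3 remaining core classes had lower means. H2A rows averaged 0.42 ± 0.15 over 22 rows, H4 rows 0.46 ± 0.19 over 14 and H3 rows 0.33 ± 0.10 over 14 (log2(RPKM + 1), SD, n = 3). Outside the Hist3 cluster the mean was 0.19 for H2A and 0.55 for H2B, so the Hist3 rows carried much of both. Hist1h2ak held 0.630, 2.77 and 0 RPKM, and the second row of Hist2h2aa1 held 0, 2.70 and 0.295 RPKM. H2A rows listed at 0 in all 3 libraries included Hist1h2ag, Hist1h2ai and Hist1h2an.

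Among H3 rows Hist1h3h held 0, 17.2 and 0 RPKM, Hist1h3g 6.76, 0.0317 and 0.587 RPKM, and Hist1h3c 1.70, 0 and 0.864 RPKM. The second row of Hist2h3c2 held 1.04, 0 and 1.23 RPKM. Each of these 4 rows was at 0 or near it in at least 1 library. Hist1h3a and Hist1h3d were listed at 0 throughout. Among H4 rows Hist1h4k held 2.73, 0.422 and 7.42 RPKM, Hist1h4d 0.162, 0.725 and 8.56 RPKM, and Hist1h4i 0.382, 3.64 and 0.518 RPKM. The H4 row Hist1h4b was listed at 0 in every library.

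**Figure D2:**
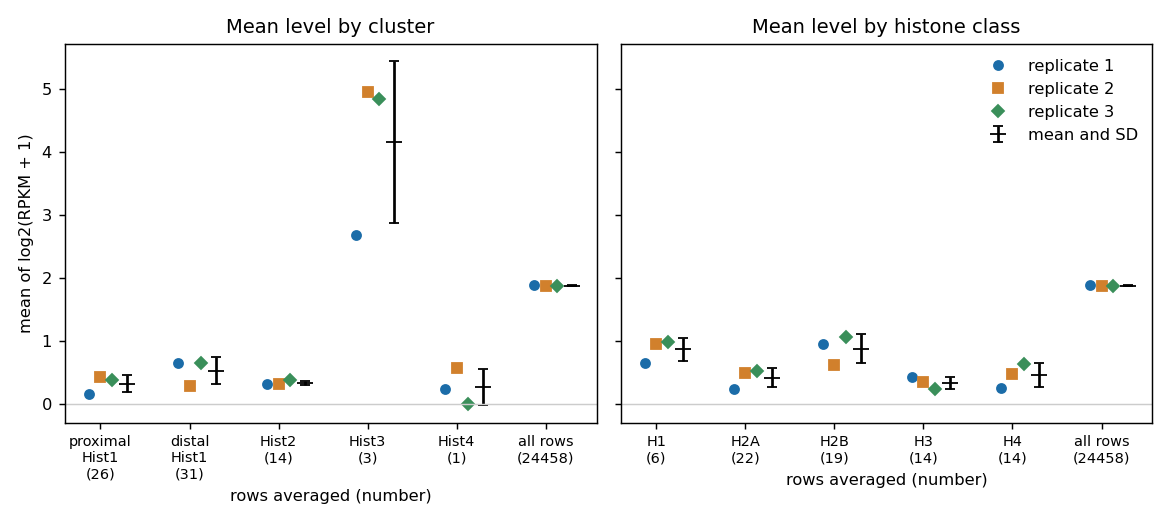
The vertical axis is the mean of log2(RPKM + 1) over the rows of a cluster (left) or histone class (right), with 1 point per replicate, the mean and the SD over 3 replicates, and the number of rows below each name; the mean of all 24458 rows stands at the right of each panel. The Hist3 cluster, at 4.15 ± 1.28, lies above the 1.88 of all rows, and the other 4 places and all 5 classes lie below it.

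Of the 5 places, Hist3 was the high one. The Hist3h2ba row held 0.295, 259 and 0.184 RPKM in replicates 1, 2 and 3. The Hist3h2a row held 1.66, 76.7 and 246 RPKM. The row of the pseudogene Hist3h2bb-ps held 75.2, 0.439 and 79.9 RPKM. Hist3h2a was at 1 RPKM or more in every library, joined by Hist3h2bb-ps in replicates 1 and 3 and by Hist3h2ba in replicate 2. The adjusted p by limma was 0.476, 0.161 and 0.220 for Hist3h2ba, Hist3h2a and Hist3h2bb-ps.

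High values close to each other, within 0.2 on the natural-log scale, stood at different rows. A value near 76 RPKM stood at Hist3h2bb-ps in replicates 1 and 3, at 75.2 and 79.9 RPKM, and at Hist3h2a in replicate 2, at 76.7 RPKM. The highest value near the cluster was 292 RPKM at Rnf187 in replicate 1, 259 RPKM at Hist3h2ba in replicate 2 and 246 RPKM at Hist3h2a in replicate 3. Rnf187 is listed 3 rows after the cluster, though its locus, at 58745789 to 58752408, comes before it in coordinates. It held 12.2 and 11.3 RPKM in replicates 2 and 3. Which gene these values belong to cannot be told from the rows.

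The sum over the 3 Hist3 rows was 77.1, 336 and 326 RPKM, with a coefficient of variation of 59.5% (n = 3). With the 5 rows on either side added, the sum over 13 rows was 444, 421 and 410 RPKM, with a coefficient of variation of 4.08%. The 10 added rows alone summed to 367, 84.8 and 84.2 RPKM, with a coefficient of variation of 91.2%. In replicate 1 the added rows were high where the Hist3 rows were low, and the whole window varied less than either portion. The row directly before the cluster, that of the zinc finger gene Zfp39, held 40.7, 46.5 and 46.9 RPKM.

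**Figure D3:**
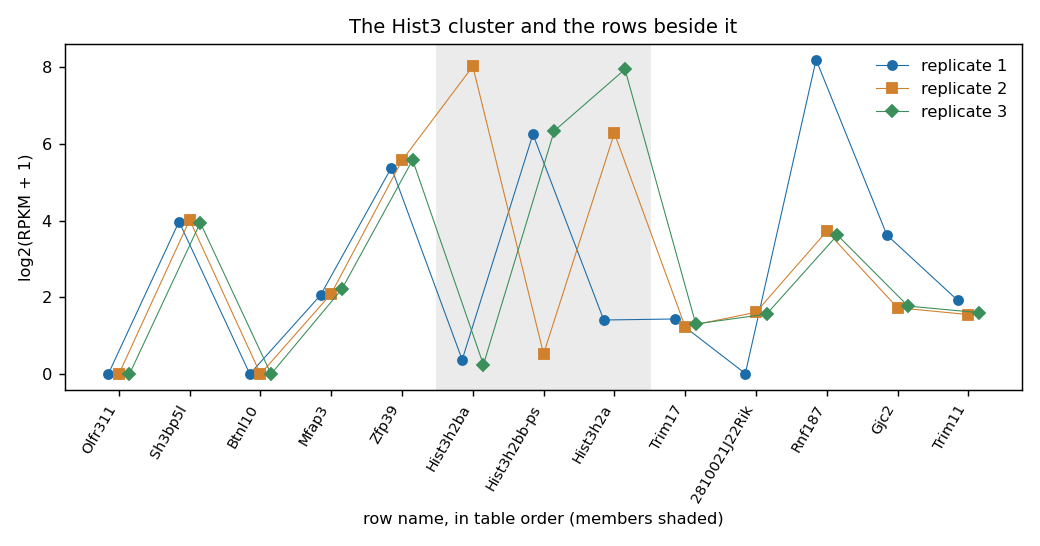
Rows are in table order on the horizontal axis, with the 3 Hist3 rows shaded and 5 rows on either side, and the vertical axis is log2(RPKM + 1) for replicates 1, 2 and 3. The replicates lie close together at the 5 rows before the cluster, differ at the Hist3 rows and at Rnf187, and the highest value stands at Rnf187 in replicate 1, Hist3h2ba in replicate 2 and Hist3h2a in replicate 3.

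The distal Hist1 cluster had a mean log2(RPKM + 1) of 0.53 ± 0.21 and the proximal one 0.32 ± 0.14 (SD, n = 3). Member rows summed to 72.0, 13.7 and 49.4 RPKM in the distal and 4.65, 26.1 and 27.2 RPKM in the proximal cluster. The distal window, with interspersed rows and 5 rows on either side, summed to 211, 233 and 253 RPKM. Its coefficient of variation was 9.22%, against 65.2% for the distal member rows alone. The proximal window varied by 37.9%, against 65.8% for its member rows. Around Hist2 the order was the other way, with 33.4% for the window and 15.5% for the member rows.

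Most of the distal window's RPKM lay in rows that are no members. Abt1, named for an activator of basal transcription, was listed among the distal rows and held 0, 69.2 and 77.4 RPKM. Its locus, at 23510229 to 23515735, comes before the run in coordinates. Acot13 and Tdp2, named for an acyl-CoA thioesterase and a DNA repair enzyme, lay 3 and 5 rows after the run. They held 73.8, 48.9 and 49.4 RPKM and 48.6, 52.6 and 54.6 RPKM. A microRNA row listed inside the run, Mir466i, held 0, 24.1 and 3.48 RPKM, though its locus, at 17839306 to 17839427, lies far outside it. Its 24.1 RPKM in replicate 2 is close to the 22.9 RPKM at Hist1h2bc in replicate 3. The 46.4 RPKM at Hist1h2bc in replicate 1 had no counterpart within 10 rows in the other libraries, at a limit of 0.2 on the natural-log scale.

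In the proximal cluster 11 of 26 rows were listed at 0 in all 3 libraries, against 6 of 31 in the distal one and 18.8% of all rows. A value near 17 RPKM stood at Hist1h3h in replicate 2 and 2 rows away at Hist1h2bl in replicate 3, at 17.2 and 17.6 RPKM. In replicate 1 the closest such value, 15.5 RPKM, stood 9 rows before Hist1h2bl, at the odorant receptor row Olfr1366, a row chosen after its values were seen. Rows at 1 RPKM or more numbered 1, 3 and 2 in the proximal and 6, 2 and 4 in the distal cluster in replicates 1, 2 and 3.

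The Hist2 cluster had the steadiest mean of the 5 places, 0.33 ± 0.03 (SD, n = 3). Its 14 rows summed to 5.63, 4.94 and 6.71 RPKM. High rows were listed beside it. Sv2a, named for a synaptic vesicle glycoprotein and 4 rows after the run, held 0.744, 76.1 and 0.521 RPKM. Fcgr1, an immunoglobulin receptor row 5 rows after the run, held 14.7, 0.0312 and 75.7 RPKM. Before the run, the trafficking gene row Vps45, the splicing factor row Sf3b4 and the myotubularin-related row Mtmr11 reached 33.7, 35.8 and 31.8 RPKM in 1 library each. Hist4h4 on chromosome 6 held 0.174, 0.489 and 0 RPKM. Within 2 rows of it a value of 31.4, 29.4 and 29.0 RPKM stood at H2afj, Atf7ip and H2afj in replicates 1, 2 and 3. H2afj encodes a replication-independent H2A.

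Values of the member rows were also searched for between libraries. Each member value of 1 RPKM or more was looked for in the other libraries, with a tolerance of 0.1 on the natural-log scale. Every pair of libraries was searched in both directions, which made 58 searches that are not independent. The value stood at the same row in 4 and at another row up to 10 away in 16, or 20 in all. Those at the same row were all between replicates 1 and 3, 2 in each direction. No same-row count was made over all rows, so whether 4 is low for this table cannot be told. The limit is narrow, and even Hist1h1c, at 11.3 RPKM in replicate 1 and 9.65 RPKM in replicate 3, did not meet it. Windows of the same width 26 to 100 rows away gave 14.5 on average. With at most 5 rows allowed, 19 searches found it, against 8.42 in distant windows.

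Tiles of 20 consecutive rows, in table order, were laid over each chromosome without regard to gene names. The mean log2(RPKM + 1) of each was compared with that of all rows. In 4 of 1210 tiles at least 10 rows were members. All 4 were below the mean of all rows (limma, two-sided, adjusted p of 0.00400 or lower), beside 37.4% of tiles that were below and 44.8% that were above. Such a call means that the offset repeated in the 3 animals, not that a tile is unusual.

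The lowest of the 4, with 17 member rows of the proximal Hist1 cluster, was offset by -1.53 ± 0.15 (SD, n = 3). Of the distal cluster, the tile with 10 member rows from Hist1h2bb on was offset by -1.14 ± 0.04. The tile with 16 member rows from Hist1h4f to Hist1h3c was offset by -0.84 ± 0.28. The Hist2 tile, with 14 member rows, was offset by -0.96 ± 0.05. Tiles of chromosome 13 with only 9 and 5 member rows were lower than all 4, at -1.57 and -1.66. On chromosome 11 the tile ending at Hist3h2bb-ps was at -0.69 and the one starting at Hist3h2a at 0.77, called above. The tile holding Hist4h4 was at -0.20. With tiles of 10 rows, 8 of 9 histone tiles were below. The exception, from Mir466i to Hfe, was offset by -0.17 (limma, adjusted p = 0.35) and holds Hist1h2bc, Hist1h1c and Abt1.

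**Figure D4:**
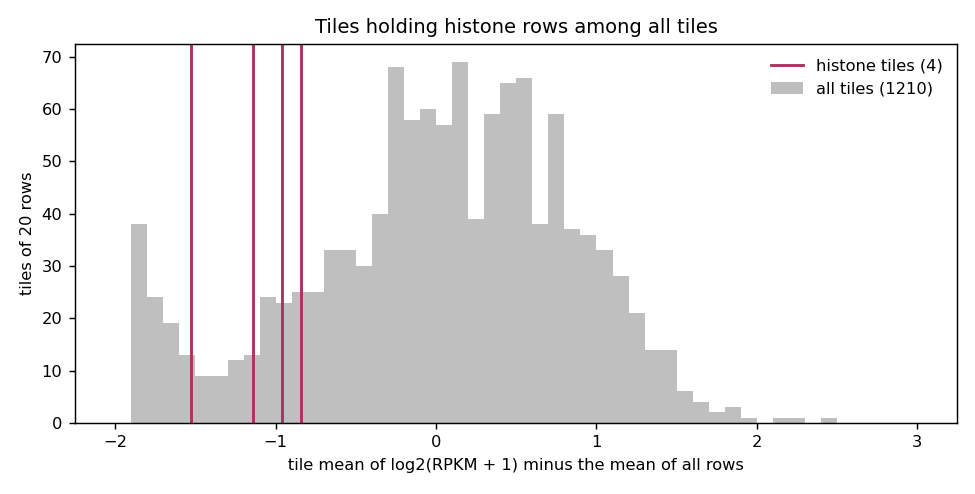
The horizontal axis is the mean log2(RPKM + 1) of a tile of 20 rows minus that of all rows, averaged over 3 replicates, and the vertical axis counts tiles. The 4 vertical lines are the tiles in which at least 10 rows are members, at -1.53, -1.14, -0.96 and -0.84.

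Rows also differed by the 3′ end that GENCODE M21 annotates for the gene they are named for. Of the 44 symbols with a stem-loop, 22 have more than 100 annotated bases after it, as in Hist1h1c with 840, Hist3h2a with 1643 and Hist4h4 with 2445. In the deposited table the loci of these 3 span only 725, 508 and 439 bases. Their rows therefore cannot cover all the bases counted after the stem-loop. The locus was also shorter than those bases for Hist1h1d, at 776 against 4884, and Hist1h2ac, at 487 against 2010. It was longer for others, such as Hist3h2ba, at 462 against 169. Not every row was compared in this way. The other 22 end within 100 bases, as in Hist1h3c with 74 and Hist1h2bb with 23. Rows of the longer kind reached 1 RPKM in 4, 5 and 5 of 24 cases, or 19.4% ± 2.41 (SD, n = 3). Rows of the shorter kind were at that level in 1, 1 and 0 of 27 cases, or 2.47% ± 2.14. The same rows were counted in each library, and Hist1h1c and Hist3h2a reached 1 RPKM in all 3. The SD is therefore over libraries and does not measure a spread over genes.

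Without the Hist3 cluster the shares were 15.2% ± 2.62 and 2.47% ± 2.14, and divided at 200 bases they were 20% ± 5 and 4.30% ± 4.93. Rows with no match numbered 24, and 6, 2 and 5 of them reached 1 RPKM. The limit of 100 bases was chosen after the values were seen, and no test was made over the members. Values that stand at other rows in other libraries enter these counts, and their part was not tested. All 3 shares lay below the 49.7% of all rows.

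**Figure D5:**
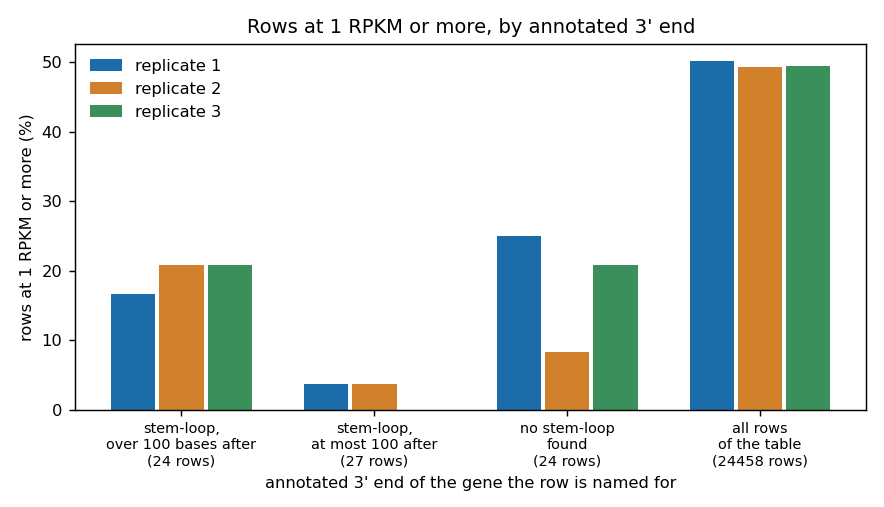
Bars give the percentage of rows at 1 RPKM or more in replicates 1, 2 and 3, for member rows with over 100 annotated bases after the stem-loop, with at most 100, with no stem-loop match, and for all rows of the table. The first set stands at 16.7% to 20.8% and the second at 0% to 3.70%.

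Other genes of histone supply were read from fixed lists with the same limma test, beside the 18.9% of all symbols that passed. Of 15 replication-independent histone symbols 3 passed: H2afx, whose product marks DNA breaks, with 40.1, 39.2 and 32.7 RPKM, the linker gene H1f0 and the macroH2A gene H2afy2. The rows of highest mean on that list did not pass, with H2afv at 2.71, 1051 and 14.6 RPKM, H1foo at 0.118, 0.0484 and 186 RPKM and H3f3a at 9.04, 153 and 6.94 RPKM. Each owed its mean to 1 library. The median of a member's mean on that list was 10.8 RPKM, against 0.185 RPKM for the clustered genes.

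Of 13 symbols for processing or transcribing histone mRNA 4 passed, among them Slbp with 22.1, 21.3 and 97.0 RPKM, the cleavage factor gene Cpsf2 with 11.01, 29.2 and 25.1 RPKM and Lsm10, of the U7 particle, with 12.3, 12.5 and 12.98 RPKM. The other was Casp8ap2. Of 16 histone chaperone symbols 6 passed, among them Ssrp1 with 8.57, 45.4 and 9.67 RPKM and Rbbp4 with 30.1, 8.14 and 8.11 RPKM. Nap1l1, at 3.55, 66.3 and 69.6 RPKM, did not pass (limma, adjusted p = 0.0941).

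Of 18 proliferation symbols 2 passed, the S phase cyclin Ccne1 with 7.35, 9.69 and 8.33 RPKM and the helicase gene Mcm7 with 4.57, 5.86 and 6.46 RPKM. Mcm2 held 2.003, 32.8 and 28.8 RPKM and Ccna2 2.30, 3.99 and 41.1 RPKM, and neither passed. Mki67, the usual mark of dividing cells, held 1.18, 0 and 0.348 RPKM. The median of a member's mean was 1.40 RPKM. The whole list summed to 56.9, 67.1 and 100.5 RPKM, and the clustered histone rows to 160, 382 and 409 RPKM. Of the clustered rows, those of the Hist3 cluster held 77.1, 336 and 326 RPKM, values that cannot be assigned to a gene. The relation between the proliferation list and the clustered rows was not tested.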

How the data were processed

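The authors deposited 1 table of RPKM values (reads scaled to gene length and to mapped reads) for all genes, made with TopHat2 and Cufflinks on mm9, per the submitters' processing notes. The sources used here give no versions, gene annotation, read depth or filters. A further 9 value columns match no listed sample and entered no computation. Members, lists and cell type markers were chosen with earlier results of these data known. Libraries came from separate animals, per the labels' protocols.

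Tests used limma 3.58.1 in R 4.3.3 on log2(RPKM + 1), with intercept-only models and moderated variance, fitted to all symbols (one-sided, variance trend) or all tiles (two-sided), and Benjamini-Hochberg adjustment with a threshold of 0.05. Both fits were tested on simulated data with the same small normal noise for every symbol or every tile. Some rows here differed far more between libraries, and the simulation does not cover such rows. Cluster and class means got no test. Stem-loops and shared 50-base stretches came from GENCODE M21 transcripts of another build, matched by symbol, with no coordinates used.

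Rows were named by a fixed rule: the 20 highest member rows, symbols past the level test, members of runs of up to 6 rows, the highest and lowest of each class, up to 3 of each other list, and rows at 20 RPKM or more within 5 rows of a run. Rows and sequences given beyond these were chosen after their values were seen. Alternatives changed the pseudocount, level, scaling, filter, tile size, run edges, matching limits and libraries. Of the marker lists, 2 of 6 neural progenitor (Hopx, Hes5), 1 of 5 oligodendrocyte (Cnp) and 5 of 6 microglial symbols passed 1 RPKM by limma, and 0 of 5 astrocyte symbols, with 1 at an unadjusted p under 0.05.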

Additional observations from a re-analysis of the deposited data

How the results depend on the processing

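Among 114 alternatives for the main values, 28 moved a count by over 1.5 times or a level or share by over 1 SD, and 86 did not. Leaving out 1 library cannot move a mean level or share by over 1 SD of the libraries. Those settings were therefore among the 86 by construction and say nothing of stability. The settings without the Hist3 cluster were chosen after seeing the data. Member symbols above the level by limma numbered 0 at 5 RPKM, with 1 at an unadjusted p under 0.05, and 0 to 3 with a library left out. All symbols above the level numbered 2049 at 5 RPKM and, leaving out 1 library, 2686 to 4978. Histone tiles off the mean numbered 8 with 10 rows per tile and 1 with 40, and all tiles 1703 and 526. With a pseudocount of 0.1 the mean log2 level was -2.38, -1.76, -2.19 and -1.98 for the proximal Hist1, distal Hist1 and Hist2 clusters and the Hist4 locus, and -1.23, -2.20, -1.30, -2.35 and -1.81 for H1, H2A, H2B, H3 and H4. With 5 rows left out at each edge, Hist2 was at 0.54, H2A at 0.22 and H3 at 0.19, and Hist3 and Hist4 had no row left. Without the Hist3 cluster H2A was at 0.19, H2B at 0.55 and the share of member rows at 1 RPKM or more at 10.6%. That share was 20.9% at 0.5 RPKM and 6.67% at 5 RPKM. Searches with a match numbered 20, against 14.5 in distant windows. They numbered 11 against 8.93 with a limit of 0.05, where 0 stood at the same row, and 32 against 23.04 with a limit of 0.2. Settings that count other things or drop rows move values by construction, and a smaller pseudocount lowers every log2 level by construction. Counts with a library left out moved both ways. All symbols above the level went from 4521 to 4978 without replicate 1 and to 2686 without replicate 3. The cause of those moves was not tested. No paired analysis was possible because there is a single group, E24. Without read depths, no limit set by depth can be given.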
